A study of Mus musculus with 6 samples.

Results

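The enzymes that turn tryptophan into NAD were followed in sorted mouse hepatocytes. The 9 genes, Tdo2, Ido2, Afmid, Kmo, Kynu, Haao, Acmsd, Qprt and Nadsyn1, were taken by symbol from a table of read counts for 17275 genes. All 9 were found and all 9 passed the filter on low counts, 9 of the 12343 genes tested. Hepatocytes came from C57BL/6 mice carrying Axin2rtTA and TetO-H2B-GFP, in which doxycycline lets cells with an active Axin2 promoter make a green fluorescent histone. Each mouse received doxycycline for 7 days, and its age is given both as 8 weeks and as postnatal day 63. After removal of non-parenchymal cells, 3 libraries were made from GFP-positive (Axin2-positive) and 3 from GFP-negative (Axin2-negative) hepatocytes. Both groups share the strain, both transgenes and the drug. The reporter marks promoter activity during labelling, and the label may outlast that activity. Libraries are numbered 1, 2 and 3 by the sequencing index they share across groups. No label says whether libraries came from separate animals or pools, so p-values measure the spread between these libraries, part of which may be technical.

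Most tryptophan that liver does not use for protein is oxidised along the kynurenine pathway. Tdo2, tryptophan 2,3-dioxygenase, opens the indole ring in hepatocytes, and Ido2 is a related dioxygenase of low activity. Afmid removes the formyl group to give kynurenine, Kmo hydroxylates it, Kynu splits off alanine, and Haao opens the ring of 3-hydroxyanthranilate. The product either closes to quinolinate, which Qprt converts to a mononucleotide on the way to NAD, or is taken away from NAD by the decarboxylase Acmsd. Nadsyn1 adds the amide in the last step to NAD.

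Reads assigned to genes numbered 77994792 to 103386648 per library in the Axin2-positive group and 75882611 to 101814611 in the Axin2-negative group. Axin2, whose promoter drove the sort, gave 2.40, 22.6 and 24.2 CPM (counts per TMM-scaled 1e6 reads) in Axin2-positive 1, 2 and 3, against 3.04, 3.74 and 5.75 CPM in Axin2-negative 1, 2 and 3. Replicate 1 did not show the sorted gene higher, so the library labelled Axin2-positive 1 goes against its label. The tests of the 9 members are therefore given with and without replicate 1. Every fit without replicate 1 also holds the replicate number as a block, whereas the fit of 6 libraries beside it has group only. Part of a change in SE or p between them may thus come from the block. Glul, the pericentral glutamine synthetase, was at 88.0, 338.7 and 1050 CPM against 87.9, 46.9 and 119 CPM, and the periportal cytochrome Cyp2f2 at 1624, 6.17 and 18.8 CPM against 1653, 2159 and 1233 CPM. The libraries of replicate 2 held 7164 (Axin2-positive) and 6759 (Axin2-negative) reads of Y-linked Ddx3y and the other 4 held 0 to 3, so replicate 2 was male and its libraries came from other mice than those of replicates 1 and 3. Hepatocyte markers summed to 114800 to 217500 CPM in Axin2-positive and 107400 to 215700 CPM in Axin2-negative libraries, with all 9 listed markers read in every library.

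Promoters are shown for 3 of the genes. Tdo2 and Qprt had the most positive and the most negative fitted difference between the groups, and Haao is the only member, among those with a window, that holds the TCF/LEF letters CTTTGAT. The windows are from RefSeq on GRCm38.p6, run from 250 bases before to 50 bases after the start site, and were available for 7 of the 9 members, not for Ido2 and Kynu. All 3 are on the minus strand, at chr3:81975679-81975978 (Tdo2), chr7:127121980-127122279 (Qprt) and chr17:83846741-83847040 (Haao). Capitals mark any of the letters CTTTGAT or CTTTGTT (TCF/LEF), CAAAGTC (HNF4), GTTAAT (HNF1), TGTTCT (glucocorticoid receptor) or TATAAA, on either strand.
Tdo2: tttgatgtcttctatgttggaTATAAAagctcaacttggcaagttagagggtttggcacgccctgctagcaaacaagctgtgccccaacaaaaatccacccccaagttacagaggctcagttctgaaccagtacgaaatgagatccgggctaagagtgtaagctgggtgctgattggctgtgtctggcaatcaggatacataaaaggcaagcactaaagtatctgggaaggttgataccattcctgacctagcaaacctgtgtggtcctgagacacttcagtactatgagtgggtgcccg
Qprt: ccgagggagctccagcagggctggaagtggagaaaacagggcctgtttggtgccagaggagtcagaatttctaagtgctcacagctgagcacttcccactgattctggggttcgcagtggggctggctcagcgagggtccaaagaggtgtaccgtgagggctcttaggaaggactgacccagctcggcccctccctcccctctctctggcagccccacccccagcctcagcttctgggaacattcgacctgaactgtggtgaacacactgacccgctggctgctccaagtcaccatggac
Haao: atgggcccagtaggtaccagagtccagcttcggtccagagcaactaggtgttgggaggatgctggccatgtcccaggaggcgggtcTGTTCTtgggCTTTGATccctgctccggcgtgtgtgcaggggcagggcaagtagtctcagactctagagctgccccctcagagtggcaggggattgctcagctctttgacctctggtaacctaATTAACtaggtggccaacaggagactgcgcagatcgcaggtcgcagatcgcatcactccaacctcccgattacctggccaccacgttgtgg
CTTTGAT was in 3.72% of 27025 promoter windows, CTTTGTT in 5.79%, CAAAGTC in 4.36%, GTTAAT in 7.20%, TGTTCT in 19.0% and TATAAA in 14.2%. Among the 7 member windows, CTTTGAT and GTTAAT were each in 1 (Haao), CTTTGTT in 0, CAAAGTC in 1 (Kmo), TGTTCT in 2 (Haao and Kmo) and TATAAA in 1 (Tdo2). Haao, which holds the TCF/LEF letters, was among the members with the smallest differences between the groups, with a fitted log2 fold change of 0.024. A match is a description of these letters and says nothing about binding.

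The pathway was read at very unequal levels along its length. Per kilobase of transcript, Tdo2 averaged 429 ± 140 CPM in Axin2-positive and 357 ± 109 CPM in Axin2-negative libraries (SD, n = 3 each). Haao averaged 342 ± 6.24 and 337 ± 26.9 CPM per kilobase on the same scale (Axin2-positive, then Axin2-negative). Kmo followed with 120.4 ± 10.7 and 115 ± 11.3, Kynu with 82.1 ± 25.1 and 80.8 ± 24.6, Qprt with 53.4 ± 7.64 and 64.5 ± 13.6, Afmid with 54.1 ± 13.0 and 63.3 ± 8.14, and Ido2 with 44.7 ± 11.04 and 50.3 ± 9.42 CPM per kilobase. Nadsyn1 (8.09 ± 1.14 and 9.24 ± 0.728) and Acmsd (6.45 ± 4.64 and 6.42 ± 3.07 CPM per kilobase) were lowest. The ranges over all 6 libraries of Haao and Kmo did not overlap, nor did those of Ido2 and Nadsyn1. Every other pair of neighbours in the order of mean level had overlapping ranges. Compared within each library, Kmo stood above Kynu and Kynu above Qprt in all 6. The remaining neighbours changed order between libraries, so their order is not settled. In the authors' deposited table the FPKM of Tdo2 was 768 in Axin2-positive and 678 in Axin2-negative cells, and that of Acmsd 5.82 and 6.91. Haao was at 401 and 405 there, further below Tdo2 than per kilobase. Qprt, at 96.7 and 119.9, stood above Kynu, at 74.8 and 77.9, the reverse of their order per kilobase. The order and the gaps thus depend on the measure of level. In that table Tdo2 stood above 99.5% and Acmsd above 56.1% of the transcripts with a usable estimate in Axin2-positive cells.

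**Figure D1:**
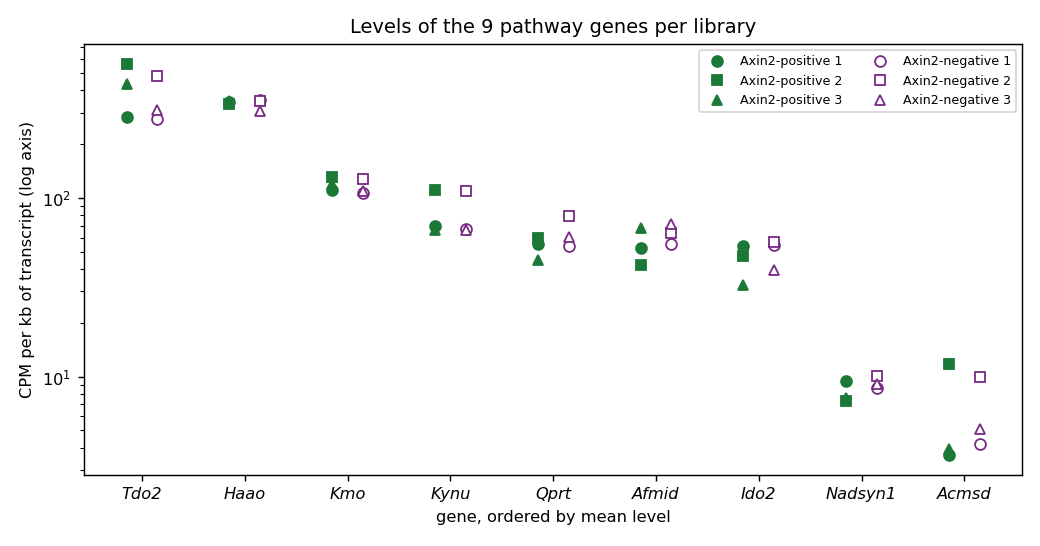
Level of each of the 9 genes in each library, in CPM per kilobase of transcript on a log axis; filled green symbols are Axin2-positive and open purple symbols Axin2-negative libraries, with circles, squares and triangles for replicates 1, 2 and 3. Tdo2 and Haao lie above 278 in all 6 libraries, while Nadsyn1 and Acmsd reach at most 11.8.

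Whether the pathway differs between Axin2-positive and Axin2-negative hepatocytes was tested in a fit of all genes. At a Benjamini-Hochberg adjusted p under 0.05, the quasi-likelihood test of edgeR on the 6 libraries called 0 of the 9 members higher and 0 lower. The background was 0.0% of 12343 genes called. At an unadjusted p under 0.05 it listed 0 members, against 2.26% of all genes. DESeq2, limma-voom and edgeR with the replicate number as a block also called 0 members. Each of these called 0 of all genes tested, so the absence of calls is not particular to the members. The block listed 0 members at an unadjusted p under 0.05, against 9.17% of all genes. The groups overlapped for all 9 members, where they did not overlap for 7.21% of the genes tested. Members had a median log2 fold change of 0.0071, and all genes tested -0.0047. The medians were -0.11 and -0.0044 with the replicate block, and -0.059 and -0.0021 without replicate 1.

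Tdo2 (chromosome 3, 81957090 to 81976202, minus strand, GRCm38), which commits tryptophan to the pathway, had 979.8, 1941 and 1491 CPM in Axin2-positive 1, 2 and 3, against 954.7, 1652 and 1064 CPM in Axin2-negative 1, 2 and 3. The value was higher in the Axin2-positive library of every replicate, by 1.03-fold, 1.18-fold and 1.402-fold, and the groups overlapped, with replicates further apart than groups. Its log2 fold change was 0.27 (SE 0.33, 95% interval -0.53 to 1.07; edgeR adjusted p = 0.999). Without replicate 1 and with the replicate block it was 0.36 (SE 0.11, 95% interval 0.080 to 0.64; edgeR adjusted p = 0.116).

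Ido2 (chromosome 8, 24531892 to 24576333, minus strand), the other ring-opening dioxygenase, was at 133, 116 and 79.8 CPM in Axin2-positive 1, 2 and 3, against 135, 139 and 96.9 CPM in Axin2-negative 1, 2 and 3. It was lower in the Axin2-positive library of every replicate, and replicate 3 was low in both groups. The log2 fold change was -0.17 (SE 0.24; edgeR adjusted p = 0.999), and -0.27 (SE 0.095, 95% interval -0.51 to -0.027; edgeR adjusted p = 0.152) without replicate 1. Per kilobase, Tdo2 exceeded Ido2 by 5.28, 11.9 and 13.4 times in the Axin2-positive libraries and by 5.07, 8.51 and 7.85 times in the Axin2-negative libraries. By the authors' values the gap was wider, with Axin2-positive and Axin2-negative FPKM of 768 and 678 for Tdo2 and 39.6 and 44.2 for Ido2. The related gene Ido1 was nearly silent, with 0 to 1 read in any library.

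Afmid (chromosome 11, 117825924 to 117839908, plus strand), the formamidase, was at 121.9, 97.8 and 158 CPM in Axin2-positive 1, 2 and 3, against 128, 148 and 166 CPM in Axin2-negative 1, 2 and 3. The value in replicate 2 stood apart, with an Axin2-positive level 0.661 of its partner, while replicates 1 and 3 each gave 0.953. The log2 fold change was -0.23 (SE 0.21; edgeR adjusted p = 0.999), and -0.33 (SE 0.15; edgeR adjusted p = 0.239) without replicate 1. Afmid shares its annotated span with the protein-coding model Gm20708 on the same strand and 169 bases with Tk1 on the other, so reads may be split among them.

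The 3 middle enzymes had the smallest fitted log2 fold changes after Acmsd, each at most 0.073. Kmo (chromosome 1, 175620381 to 175662116, plus strand) was at 297, 355 and 321 CPM in Axin2-positive 1, 2 and 3, against 288, 343 and 294 CPM. Kynu (chromosome 2, 43555329 to 43682715, plus strand) was at 189.6, 303 and 179.8 CPM against 183, 298 and 181 CPM. Haao (chromosome 17, 83831156 to 83847963, minus strand) was at 475, 463 and 480.0 CPM against 489, 483 and 422 CPM. Kmo was slightly higher in the Axin2-positive library of each replicate, Kynu in replicates 1 and 2, and Haao in replicate 3. Log2 fold changes were 0.073 for Kmo (SE 0.14, 95% interval -0.26 to 0.41), 0.023 for Kynu (SE 0.30, -0.71 to 0.75) and 0.024 for Haao (SE 0.12, -0.27 to 0.32), each with an edgeR adjusted p of 0.999. With the replicate block the 95% intervals were -0.16 to 0.30 for Kmo, -0.20 to 0.24 for Kynu and -0.24 to 0.295 for Haao. Without replicate 1 the log2 fold changes were 0.090 for Kmo (SE 0.11), 0.0082 for Kynu (SE 0.10) and 0.063 for Haao (SE 0.12), with edgeR adjusted p of 0.637, 0.970 and 0.773 in that order. Kmo overlaps Fh1 by 5255 bases on the opposite strand, and the use of strand in counting is not given in the sources used here.

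At the branch point stand Qprt, on the arm to NAD, and Acmsd, on the arm away from it, and neither was called. Qprt (chromosome 7, 127107114 to 127122226, minus strand) was at 114, 122.2 and 92.0 CPM in Axin2-positive 1, 2 and 3, against 109.8, 163 and 124 CPM in Axin2-negative 1, 2 and 3. In replicates 2 and 3 the Axin2-positive library held 0.748 and 0.743 of its partner, and in replicate 1 it held 1.04. The log2 fold change was -0.27 (SE 0.19, 95% interval -0.75 to 0.20; edgeR adjusted p = 0.999). Without replicate 1 it was -0.42 (SE 0.097, 95% interval -0.67 to -0.18; edgeR adjusted p = 0.0663), the lowest adjusted p of any member under any setting tried.

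Acmsd (chromosome 1, 127729413 to 127767978, plus strand) was at 9.87, 32.1 and 10.6 CPM in Axin2-positive 1, 2 and 3, against 11.4, 27.0 and 13.9 CPM in Axin2-negative 1, 2 and 3. Both libraries of the male replicate 2 stood above the other 4, and the direction of the group difference was positive in replicate 2 and negative in replicates 1 and 3. The log2 fold change was 0.0071 (SE 0.57, 95% interval -1.38 to 1.39; edgeR adjusted p = 0.999), and it was -0.059 (SE 0.16; edgeR adjusted p = 0.852) without replicate 1. An antisense gene, 2900009J06Rik, overlaps 14363 bases of Acmsd. Per kilobase, the ratio of Qprt to Acmsd was 15.3, 5.05 and 11.5 in Axin2-positive 1, 2 and 3, against 12.7, 8.03 and 11.8 in Axin2-negative 1, 2 and 3, lowest in replicate 2 of each group. The authors' FPKM set them further apart, at 96.7 and 119.9 for Qprt and 5.82 and 6.91 for Acmsd (Axin2-positive, then Axin2-negative).

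Nadsyn1 (chromosome 7, 143795584 to 143822849, minus strand), the last enzyme, was at 24.8, 19.3 and 19.98 CPM in Axin2-positive 1, 2 and 3, against 22.7, 26.5 and 24.0 CPM in Axin2-negative 1, 2 and 3. The value of the library labelled Axin2-positive 1 lay among the Axin2-negative libraries, and Axin2-positive 2 and 3 lay below all of them. Its log2 fold change was -0.19 (SE 0.13, 95% interval -0.50 to 0.12; edgeR adjusted p = 0.999), and -0.36 (SE 0.097, 95% interval -0.60 to -0.11; edgeR adjusted p = 0.0913) without replicate 1.

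**Figure D2:**
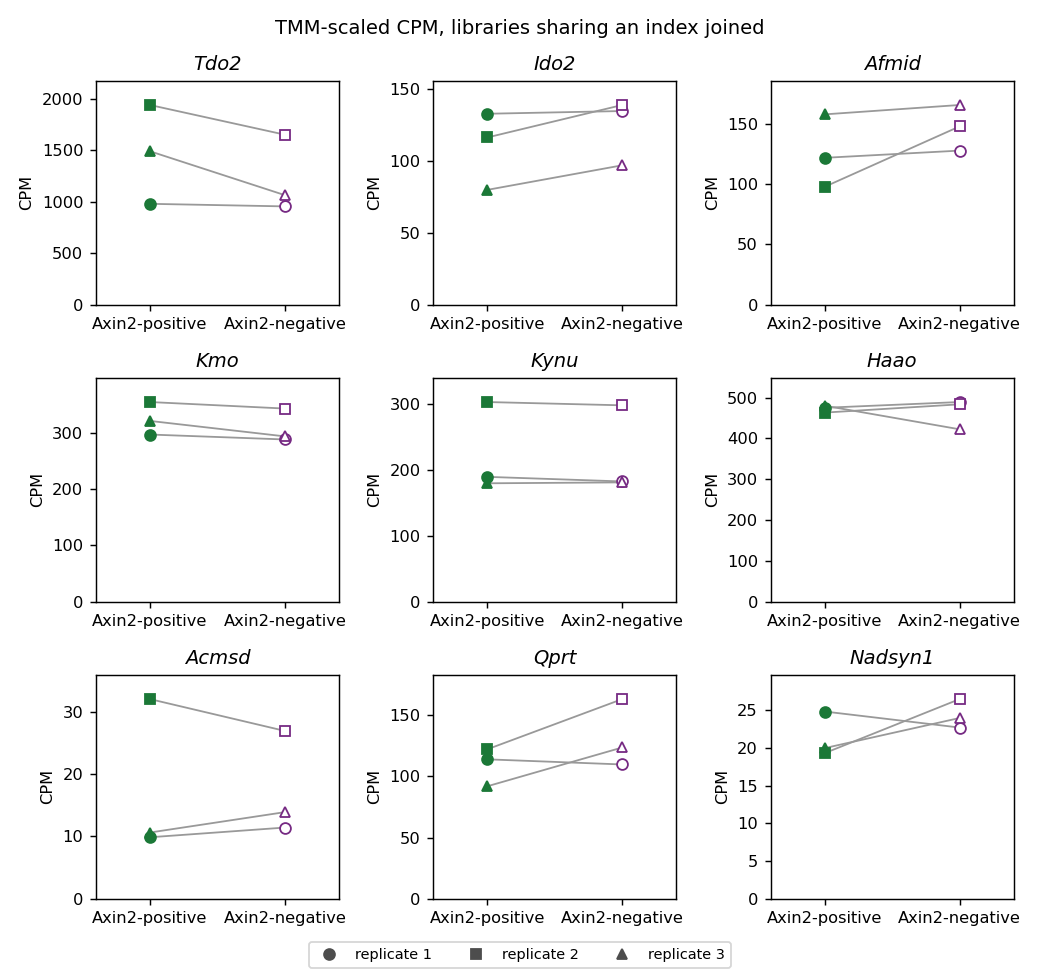
TMM-scaled CPM of each gene, with Axin2-positive libraries left and Axin2-negative libraries right; grey lines join libraries of the same replicate, and each axis starts at 0. The groups overlap in all 9 panels, and Acmsd and Kynu are highest in both libraries of replicate 2 (squares).

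Within replicates, 2 members (Tdo2 and Kmo) were higher in the Axin2-positive library of all 3 replicates and 2 (Ido2 and Afmid) were lower in all 3, where 19.5% and 20.1% of all tested genes were (39.6% in either direction). Over replicates 2 and 3, 2 members were higher in both, 4 were lower in both (Ido2, Afmid, Qprt and Nadsyn1) and 3 went opposite ways. Of all genes tested, 35.3% were higher and 36.5% lower in both (71.7% in either direction). The median size of the members' log2 difference was 0.055, 0.25 and 0.26 in replicates 1, 2 and 3, against 0.057, 0.25 and 0.21 over all tested genes. A difference of more than 1.5-fold in either direction was seen for 0, 1 (Afmid) and 0 members in replicates 1, 2 and 3, against 3.31%, 20.2% and 16.5% of all genes. The fit of replicates 2 and 3 with the replicate block called 0 of the 9 members, where it called 7.44% of 12385 genes, and against a fold of 1.5 it also called 0, where 1.68% of all genes were called (0.791% higher and 0.888% lower). At an unadjusted p under 0.05 it listed 1 member higher (Tdo2) and 3 lower (Ido2, Qprt and Nadsyn1), where 27.1% of all genes passed (13.2% higher and 13.9% lower). With 2 pairs it has few degrees of freedom, and replicate 1 was dropped with its near-equal libraries already known, which makes these calls no independent evidence.

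**Figure D3:**
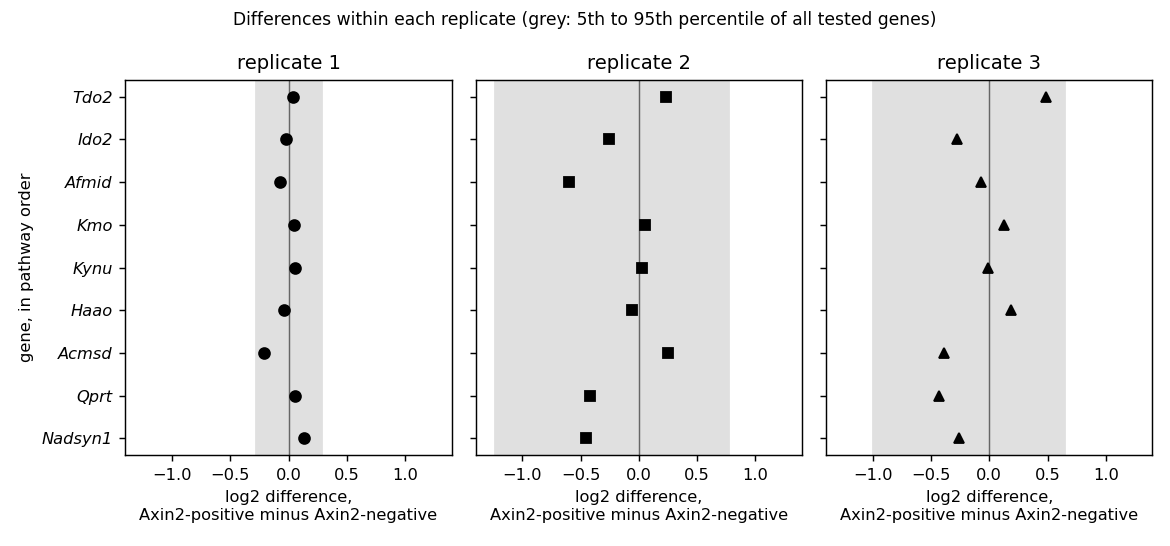
Log2 difference of each gene, Axin2-positive minus Axin2-negative, within replicates 1, 2 and 3; the grey band spans the 5th to the 95th percentile of all 12343 tested genes. All 9 genes lie inside the band in every replicate, and replicate 1 has the narrowest band.

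For most members the larger part of the variation lay between replicates. The replicate number has 2 degrees of freedom and the group 1, so the replicate share tends to be larger even without a true difference. The near-equal libraries of replicate 1 also tend to lower the group share. Of the sum of squares of log2 CPM over the 6 libraries, the replicate number took a median of 84.4% and the group 10.2% over the members, against 65.5% and 12.7% over all tested genes. The replicate share exceeded the group share in 8 of 9 members and in 80.2% of all genes. It was 99.7% for Kynu, 95.2% for Acmsd, 86.8% for Kmo, 85.7% for Ido2 and 84.4% for Tdo2. Nadsyn1 was the exception, with 8.75% for the replicate and 36.0% for the group. The rest was the largest share for Nadsyn1 (55.2%) and for Haao (62.3%, against 34.1% for the replicate). The highest and lowest replicate means differed by 1.46 on the log2 scale for Acmsd, 0.89 for Tdo2 and 0.74 for Kynu, against a median of 0.36 over all tested genes. Acmsd, Kynu, Kmo, Tdo2 and Qprt were highest in replicate 2 in both groups. Replicate 2 was the only male one, and sex, animal and index cannot be told apart with 1 such replicate. Its libraries were also both low in endothelial and stellate markers, but not both in Kupffer cell or bile duct markers. Endothelial markers summed to 1.98 CPM in Axin2-positive 2 and 6.06 CPM in Axin2-negative 2, against 54.4 to 81.7 CPM in the other 4 libraries, and stellate markers to 0.621 and 1.46 CPM against 6.09 to 8.45 CPM. Their part in the replicate differences was not tested.

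**Figure D4:**
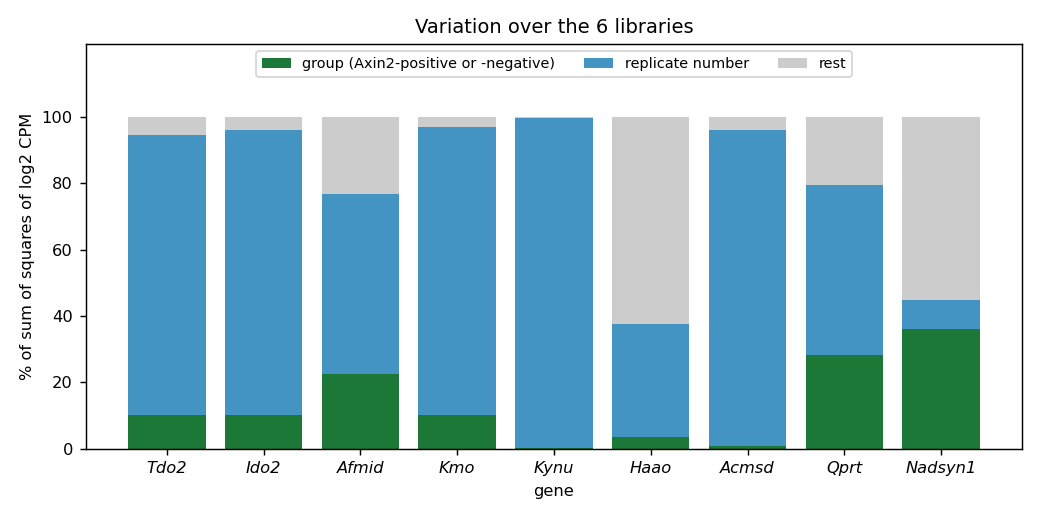
Share of the sum of squares of log2 CPM over the 6 libraries taken by the group, the replicate number and the rest, for each gene. The replicate number takes 84.4% to 99.7% for Tdo2, Ido2, Kmo, Kynu and Acmsd, and the group takes at most 36.0%.

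Some members varied alike over the 6 libraries. Tdo2 and Kmo had a Pearson r of 0.98 between their log2 CPM, and Kynu and Acmsd 0.96, whereas Afmid and Kynu gave -0.49. These values describe 6 libraries in 3 pairs, which share animals or index, and carry no p. By the same measure, the genes most like Tdo2 among 10527 compared were Tsku, Bst2 and Zfp445 (r of 0.999, 0.997 and 0.996), and 229 genes exceeded 0.95. Those most like Acmsd were Gas2l1, Zfp746 and Elovl3 (r of 0.998, 0.995 and 0.991). For Acmsd 110 genes exceeded 0.95, and over the members the number ran from 9 (Haao) to 229 (Tdo2). A high r over 6 libraries therefore does not single out a partner gene.

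In the fit of replicates 2 and 3, 2 of 5 tested amino acid transporter genes (Slc16a10 and Slc7a5) were called higher. The others, Slc3a2, Slc36a4 and Slc43a1, were not called. Of 16 listed genes of tryptophan entry and kynurenine side branches, 13 were tested, 0 were called over 6 libraries and 2 rose in the fit of replicates 2 and 3, where 3.43% of all genes rose. Slc16a10, an aromatic amino acid transporter, was at 32.8, 191.5 and 188.8 CPM in Axin2-positive 1, 2 and 3, against 31.7, 73.0 and 87.4 CPM in Axin2-negative 1, 2 and 3. Axin2-positive 2 and 3 stood above every other library, and in replicate 1 the values were near equal. Its log2 fold change was 1.10 (SE 0.71; edgeR adjusted p = 0.999) over 6 libraries and 1.25 (SE 0.12; edgeR adjusted p = 0.00859) without replicate 1, where it also passed against a fold of 1.5 (adjusted p = 0.0310).

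Slc7a5, the light chain of a large neutral amino acid exchanger, was at 0.587, 5.28 and 5.77 CPM in Axin2-positive 1, 2 and 3, against 0.397, 0.684 and 1.73 CPM. The log2 fold change was 2.05 (SE 0.94; edgeR adjusted p = 0.999), and 2.30 (SE 0.33; edgeR adjusted p = 0.0253) without replicate 1, where it did not pass against a fold of 1.5 (adjusted p = 0.0626). Its partner chain Slc3a2 had 38.3, 34.5 and 33.4 CPM against 39.1, 31.4 and 39.4 CPM. Slc36a4 was at 3.50, 2.08 and 2.70 CPM in Axin2-positive 1, 2 and 3, against 3.15, 2.999 and 3.49 CPM (log2 fold change -0.45, SE 0.20, edgeR adjusted p = 0.222, without replicate 1). Slc43a1 was at 8.71, 4.09 and 8.98 CPM in Axin2-positive 1, 2 and 3, against 8.55, 9.21 and 11.9 CPM (log2 fold change -0.77, SE 0.21, edgeR adjusted p = 0.0913, without replicate 1). Both were lower in the Axin2-positive libraries of replicates 2 and 3 and not in replicate 1. The kynurenine aminotransferases Ccbl1 (Kyat1), Ccbl2 (Kyat3), Aadat and Got2 passed in neither fit, and their Axin2-positive libraries held 0.791 to 1.06 of their partners. In the authors' deposited table Slc7a5 had an FPKM of 1.28 in Axin2-positive and 0.347 in Axin2-negative cells (q = 0.0380), and Slc16a10 26.3 and 13.5 (q = 0.0725).

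Among 11 listed genes that make NAD from other precursors, phosphorylate it or carry it, 7 were tested, 0 were called over 6 libraries, and without replicate 1 the fit called 0 higher and 1 lower, where 4.01% of all genes were called lower. The gene that fell was Mcart1, now named Slc25a51, which carries NAD into mitochondria. It was at 57.2, 30.3 and 42.1 CPM in Axin2-positive 1, 2 and 3, against 58.5, 97.6 and 109.9 CPM in Axin2-negative 1, 2 and 3. Over 6 libraries the groups did not overlap, although Axin2-positive 1 and Axin2-negative 1 were near equal. The log2 fold change was -1.04 (SE 0.32; edgeR adjusted p = 0.999) over 6 libraries and -1.53 (SE 0.11; edgeR adjusted p = 0.00562) without replicate 1, and it passed against a fold of 1.5 there (adjusted p = 0.0128). The authors' deposited table gives it 11.6 FPKM in Axin2-positive and 23.4 FPKM in Axin2-negative cells (q = 0.00961), where 0.701% of usable transcripts had a q under 0.05.

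Salvage genes were not called in either fit. Nampt, which starts salvage from nicotinamide, was at 70.7, 48.8 and 63.3 CPM in Axin2-positive 1, 2 and 3, against 69.2, 43.4 and 64.2 CPM, and Naprt1 (Naprt), which uses nicotinic acid, at 86.6, 85.9 and 94.6 CPM against 86.4, 89.2 and 87.6 CPM. The NAD kinase gene Nadk was at 177, 161 and 205 CPM against 184, 176 and 206 CPM. Nmnat3, a mitochondrial adenylyltransferase, was at 7.29, 4.30 and 5.57 CPM against 7.26, 7.35 and 7.14 CPM, with a log2 fold change of -0.34 (SE 0.21; edgeR adjusted p = 0.999) and of -0.56 (SE 0.17; edgeR adjusted p = 0.114) without replicate 1.

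Of 15 listed genes that consume NAD or clear nicotinamide, 14 were tested and 0 were called over 6 libraries, while without replicate 1 the fit called 1 higher and 0 lower, where 3.43% of all genes were called higher and 4.01% lower. This was the aldehyde oxidase gene Aox1, at 68.2, 268 and 87.2 CPM in Axin2-positive 1, 2 and 3, against 66.0, 180.7 and 53.9 CPM (log2 fold change 0.63, SE 0.10, edgeR adjusted p = 0.0333, without replicate 1). It did not pass against a fold of 1.5, nor in the authors' deposited table (Cuffdiff q = 0.9995). Its relative Aox3 was at 496, 479.7 and 305 CPM against 486, 1567 and 385 CPM, with a single high library, Axin2-negative 2 (log2 fold change -1.02, SE 0.33, edgeR adjusted p = 0.126, without replicate 1). Nnmt, which methylates nicotinamide, had 37.8, 61.4 and 105.5 CPM against 38.0, 74.9 and 119 CPM. The 7 sirtuin genes and Parp1 and Parp2 were not called in either fit.

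Of 12 listed regulators and genes linked to the kynurenine receptor, 10 were tested, 0 were called over 6 libraries, and without replicate 1 the fit called 1 higher and 1 lower, against the same 3.43% and 4.01% of all genes. Ahr, the receptor that kynurenine can activate, was at 37.8, 50.6 and 79.7 CPM in Axin2-positive 1, 2 and 3, against 36.8, 21.6 and 53.7 CPM (log2 fold change 0.90, SE 0.16, edgeR adjusted p = 0.0412, without replicate 1). Cebpb, a transcription factor of liver metabolism, was at 44.3, 63.7 and 79.9 CPM against 45.6, 118 and 143 CPM (log2 fold change -0.86, SE 0.095, edgeR adjusted p = 0.0126, without replicate 1). Neither passed against a fold of 1.5, nor in the authors' deposited table (Cuffdiff q = 0.516 for Ahr and 0.9995 for Cebpb). The glucocorticoid receptor gene Nr3c1, whose ligand induces Tdo2, was at 134, 88.0 and 103 CPM against 132, 106 and 118 CPM and was not called.

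**Figure D5:**
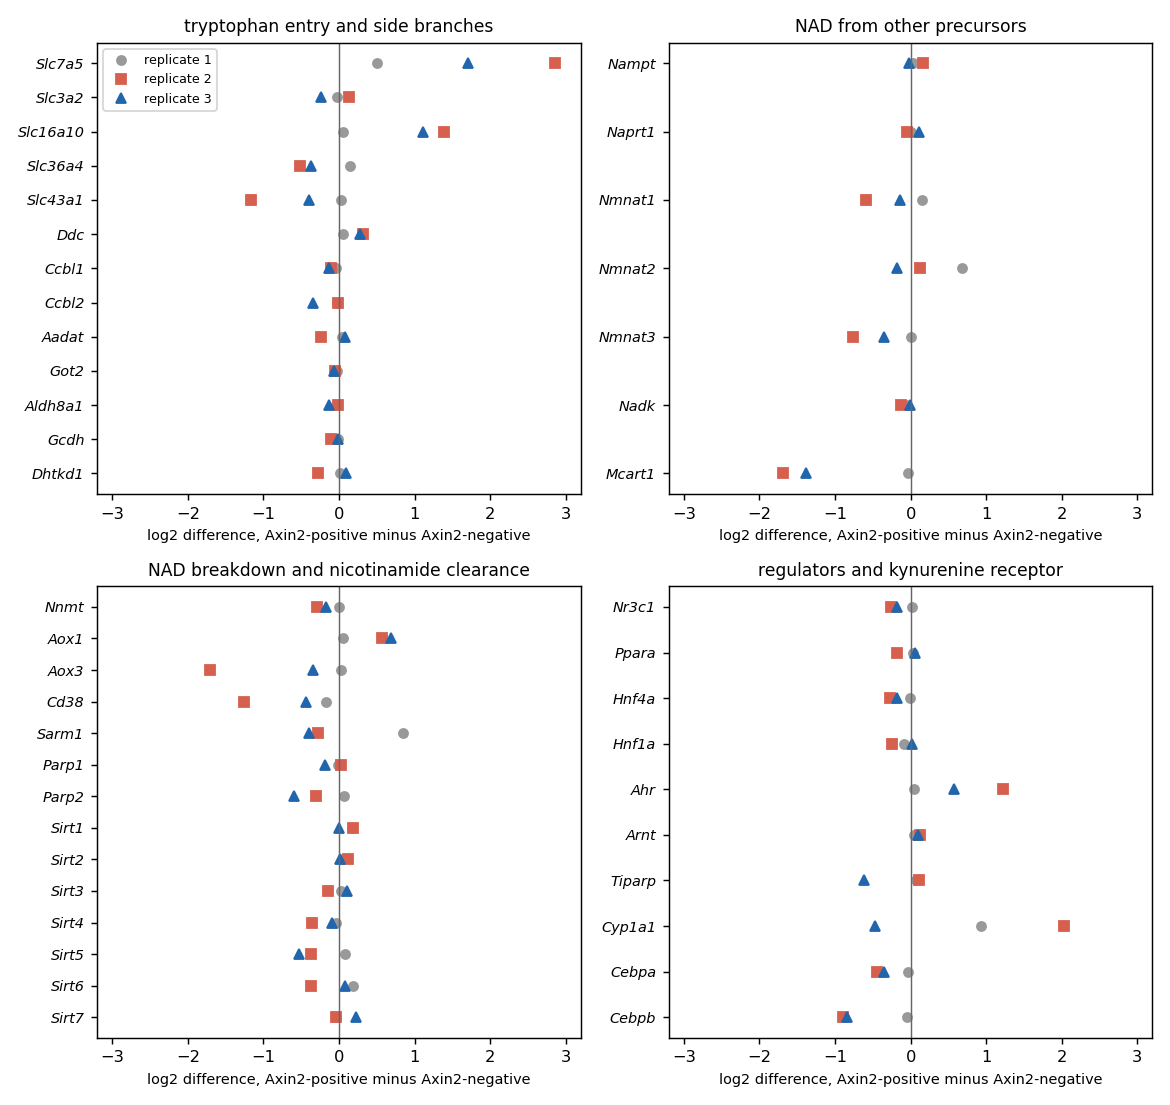
Log2 difference, Axin2-positive minus Axin2-negative, within replicates 1 (grey circles), 2 (red squares) and 3 (blue triangles) for the tested genes of 4 lists around the pathway. Slc16a10 and Slc7a5 lie to the right and Mcart1 to the left in replicates 2 and 3, while replicate 1 lies near 0 for Slc16a10 and Mcart1.

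Kmo and Ido2 are also expressed by immune cells, so markers of other cells were summed. The 12 Kupffer cell markers summed to 4.32, 1.28 and 5.51 CPM in Axin2-positive 1, 2 and 3, against 4.36, 5.34 and 30.6 CPM in Axin2-negative 1, 2 and 3. Of the 12, 0 were at 0 in every library and 3 at 0 in at least 1. The 10 endothelial markers summed to 58.2, 1.98 and 57.3 CPM in Axin2-positive 1, 2 and 3, against 54.4, 6.06 and 81.7 CPM in Axin2-negative 1, 2 and 3. The 8 stellate markers summed to 6.26, 0.621 and 6.45 CPM against 6.09, 1.46 and 8.45 CPM in the same order. Both sums were lower in the Axin2-positive libraries of replicates 2 and 3 and not in replicate 1. The fit of replicates 2 and 3 called 0 of the 10 endothelial and 0 of 4 tested stellate markers. The 7 bile duct markers summed to 11.1, 0.190 and 0.174 CPM in Axin2-positive 1, 2 and 3, against 11.6, 3.25 and 2.71 CPM in Axin2-negative 1, 2 and 3. Both bile duct markers tested, Sox9 and Spp1, fell in the fit of replicates 2 and 3, also against a fold of 1.5, and their part in the differences above was not tested. The others, Krt19, Krt7, Epcam, Cftr and Cldn7, had at most 11 reads in any library, so the sums rest mostly on Sox9 and Spp1. The 7 lymphocyte and dendritic cell markers in the table, of 11 listed, summed to 0.226 to 0.442 and 0.162 to 0.707 CPM. The Kupffer sum was lower in the Axin2-positive libraries of replicates 2 and 3 and near equal in replicate 1. In the fit of replicates 2 and 3, 6 of 9 tested Kupffer markers fell, where 4.01% of all genes fell. The part of Kupffer, endothelial and stellate cells in the differences above was not tested. In bulk libraries, fewer cells of a type and less RNA per cell cannot be told apart.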

How the data were processed

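Polyadenylated RNA of sorted hepatocytes was sequenced from stranded libraries, per the labels' protocols. The deposited table holds raw read counts, as whole numbers, by gene symbol. The submitters' processing notes name TopHat2 2.0.11 and the build mm10. How reads were counted to genes, with which annotation and strand setting, is not given in the sources used here. The authors also deposited FPKM values with p-values and q-values per RefSeq transcript, 1 value per group, and the processing notes name Cuffdiff 2.2.2. Where a symbol had several transcripts, the usable one with the lowest p was read, which favours differences (each member had 1).

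The test was edgeR's quasi-likelihood F test (edgeR 4.0.16, R 4.3.3) with group as the only term, after filterByExpr at its defaults and TMM scaling. P-values were Benjamini-Hochberg adjusted over all genes tested, and called under 0.05. DESeq2 1.42.0 and limma 3.58.1 (voom) were alternatives. CPM used TMM-scaled totals, and log2 differences an offset of 0.05 CPM. SE is the log2 fold change divided by the root of F, and 95% intervals use its degrees of freedom. The scripts were tested on simulated data that held no replicate differences and no replicate of near-equal libraries. Recovery of changes under the conditions of these libraries was thus not tested. Levels per kilobase used the length of the GENCODE M21 transcript (GRCm38) matched to the authors' RefSeq transcript, and gene coordinates are from GENCODE M21. Axin2-positive libraries held 77994792 to 103386648 reads and Axin2-negative libraries 75882611 to 101814611.

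Pairing by replicate number was checked from the libraries' deviations from the group means across genes. These correlated at 0.68, 0.82 and 0.75 between same-numbered libraries, all above 0.1, so the index was taken as a pairing and used as a block in alternatives. For different numbers the values were -0.61 to 0.14. The members and lists were chosen with earlier results of these data known. The text names all 9 members, genes of the fixed lists, and, for likeness, the 3 genes with the highest Pearson correlation among genes averaging at least 1 CPM. Older symbols were matched through RefSeq synonyms. Listed genes with no row under any symbol were not analysed here.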

Additional observations from a re-analysis of the deposited data

How the results depend on the processing

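None of the 9 members passed an adjusted p of 0.05 under any of the 17 alternative fits, with the lowest, 0.0663, for Qprt. The counts over all genes, 0 in each direction over 6 libraries, came to 425 higher and 497 lower in the fit of replicates 2 and 3 with the replicate block, and to 98 higher and 110 lower against a fold of 1.5. Leaving out a library gave 0 to 1 higher and 0 to 5 lower calls, with 1 and 5 reached without the library labelled Axin2-positive 1. The replicate block changed no call, and with it the log2 fold change of Acmsd turned to -0.11. Acmsd was also negative with limma-voom (-0.13), upper quartile scaling (-0.022), library totals only (-0.022), replicates 2 and 3 (-0.059, with or without the fold of 1.5) and replicates 1 and 3 (-0.30). Kynu turned to -0.0039 with library totals only, and Haao (-0.052) and Naprt1 (-0.0245) turned in the fit of replicates 1 and 2. The cause was not tested. Leaving out each library in turn gave ranges that cross 0 for Ido2 (-0.33 to 0.011), Kynu (-0.26 to 0.30), Haao (-0.038 to 0.061), Acmsd (-0.77 to 0.47), Aox1 (-0.37 to 1.24), Nampt (-0.13 to 0.18), Naprt1 (-0.0249 to 0.045), Nadk (-0.16 to 0.013) and Nnmt (-0.64 to 0.28). Tdo2 (0.013 to 0.54), Afmid (-0.42 to -0.074), Kmo (0.0028 to 0.16), Qprt (-0.39 to -0.094) and Nadsyn1 (-0.31 to -0.12) kept their sign. The calls of Slc16a10, Slc7a5, Mcart1, Aox1, Ahr and Cebpb were made only without replicate 1, and were not made in any fit that kept a library of it. A threshold of 0.01 gave 0 calls over 6 libraries.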
